A study of Mus musculus with 24 samples.

Results

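The genes described here encode the proteins of the cytosolic ribosome in the mouse visual cortex. They are the protein-coding genes whose symbol begins with Rpl or Rps followed by a digit, together with Rplp0, Rplp1, Rplp2 and Rpsa, without the Rps6k kinases and without pseudogenes. This rule uses names only and found 90 of the 55414 genes in the count file, 54 of the large subunit and 36 of the small subunit. Of these, 83 reached 30 counts in at least 1 library and were tested, among 14464 genes tested in all. Genes named Rps19bp1 and Rps23rg1 are found by the rule but are not known as ribosomal subunits.

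The cytosolic ribosome translates nuclear-encoded mRNAs and is built from ribosomal RNAs and a set of proteins that are, with few exceptions, needed in equal number. Their mRNAs are short and abundant, and most begin with a terminal oligopyrimidine (TOP) tract, a C followed by pyrimidines, through which the kinase mTOR and the RNA-binding protein Larp1 control their translation. In neurons, ribosomal protein mRNAs are also found in dendrites and axons, and synaptic activity is known to act on translation through mTOR. The counts measured here are of mRNA, not of its translation.

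RNA was taken from the primary visual cortex of 24 male C57BL/6J mice, 8 to 10 weeks old, kept on a reversed light cycle, with 6 mice and 1 library each in 4 groups. Dark mice received phosphate-buffered saline (PBS) and 2.5 h of darkness, and light mice received PBS and 2.5 h of light. Psilocybin-dark and psilocybin-light mice received psilocybin, a serotonergic psychedelic, at 5 mg/kg with the same exposures. No group had a transgene.

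The groups follow the headings of the study's supplementary count table. The sample labels name the same drug but the opposite light exposure for all 24 libraries. Under the labels each value below stands with the words dark and light exchanged, so the light-minus-dark direction is the reverse of the one given. Libraries 1 to 12 are the dark groups and libraries 13 to 24 the light groups, and each group is a run of consecutive numbers. Neither the exposure nor the drug can thus be told apart from the order of library numbers.

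The libraries held between 13552516 and 17906994 counts. Libraries 1, 6, 12 and 18 stood apart by markers of cerebellar cells, whose mean log2 level was at least 3.85 above the mean of all libraries there and at most 0.83 above it elsewhere. Markers of the hippocampus were highest in the dark group, 0.62 ± 0.39 (SD, n = 6) above the mean of all libraries, against -0.14 ± 0.21 in light, -0.17 ± 0.34 in psilocybin-dark and -0.30 ± 0.15 in psilocybin-light mice. All 12 markers of glutamatergic neurons passed the count filter, and their mean log2 level was lowest in the dark group, at -0.63 ± 0.48. It was 0.24 ± 0.22 in light, 0.19 ± 0.20 in psilocybin-dark and 0.19 ± 0.03 in psilocybin-light mice. In these bulk samples, fewer cells of a type and less RNA per cell cannot be told apart.

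The sequences at the starts of these genes are shown because the family is known for a TOP tract there, which not every annotated start carried. Starts were taken from RefSeq (GRCm38.p6), which listed 67 of the 90 genes, 62 of them among the genes tested. Each line gives 15 bases before the annotated start and 15 bases from it on, 5′ to 3′ on the gene's strand, with a C and at least 4 following pyrimidines in capitals where such a run began within 5 bases of the start. Rpl31, Rpl38 and Rpl12 are among the genes with the most significant changes below, Rps27 and Rplp2 also rose in both light comparisons, Rps15a was lower in light minus dark and higher in psilocybin-light minus psilocybin-dark, and Rps6 did not pass the test in either light comparison.

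Rpl31 (chr1:39367836-39367865, + strand): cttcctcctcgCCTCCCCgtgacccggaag
Rpl38 (chr11:114668565-114668594, + strand): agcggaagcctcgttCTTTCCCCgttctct
Rpl12 (chr2:32961697-32961726, + strand): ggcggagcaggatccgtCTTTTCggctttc
Rps27 (chr3:90213634-90213663, - strand): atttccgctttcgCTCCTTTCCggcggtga
Rplp2 (chr7:141447636-141447665, + strand): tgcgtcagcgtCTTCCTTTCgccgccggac
Rps15a (chr7:118116133-118116162, - strand): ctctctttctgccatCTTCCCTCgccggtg
Rps6 (chr4:86857353-86857382, - strand): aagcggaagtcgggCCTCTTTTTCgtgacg

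The next 4 genes also changed in at least 1 comparison, and no such run was found at their annotated starts.

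Rpl13 (chr8:123102335-123102364, + strand): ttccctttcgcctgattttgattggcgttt
Rps25 (chr9:44407699-44407728, + strand): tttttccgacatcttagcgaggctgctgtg
Rpl36a (chrX:134585639-134585668, + strand): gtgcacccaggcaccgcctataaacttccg
Rpl36al (chr12:69184053-69184082, - strand): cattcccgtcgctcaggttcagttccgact

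A run of this kind was present in 29 of the 62 ribosomal protein genes (46.8%) and in 2539 of 10566 protein-coding genes tested (24.0%). In the window from 250 bases before to 50 bases after the start, on either strand, the ETS core CCGGAAG was found in 40.3% of the ribosomal protein genes and 18.4% of all protein-coding genes. The YY1 core AAGATGGC was found in 9.68% against 4.95%, and the GC box GGGCGG in 64.5% against 69.0%. These matches describe the letters at annotated starts and not sites in use.

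Levels per length differed widely within the family. On the scale of TMM-normalized counts per kb of coding sequence, averaged over 24 libraries, Rpl41 was highest at 15740 ± 1896 (SD over 24 libraries). It was followed by Rplp1, an acidic protein of the stalk that recruits elongation factors, at 12590 ± 1593, and by Rps21 at 9497 ± 1447. The canonical transcript of Rpl41 has 560 bases, 138 of them coding, and that of Rplp1 has 547, 342 of them coding. The order of these genes therefore depends on the length used. The 3 lowest among the genes tested were Rps27l at 376.7 ± 52.6, Rps4l at 331.2 ± 96.6 and Rpl24 at 100.4 ± 18.4. Of the 90 genes, 44 had at least 1000 counts in every library.

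The 7 genes below the filter were the tissue-restricted paralogues Rpl3l and Rpl39l, each with a highest count of 6, Rpl10l with no count, Rps27rt with a highest count of 6, and Rpl27rt, Rpl35rt and Rps23rg1 with a highest count of 1. Rpl3l is known from striated muscle and Rpl10l and Rpl39l from the testis. The coding length of the genes tested ranged from 138 to 1257 bases with a median of 456, against a median of 1440 for the other protein-coding genes tested. Among the 323 pseudogenes with ribosomal protein symbols, 7 had a count of 30 or more, and reads from near-identical copies may be split between a gene and its pseudogenes.

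Counts on the 90 genes made up 0.796% ± 0.053 (SD, n = 6) of all counts in dark, 0.757% ± 0.027 in psilocybin-dark, 0.872% ± 0.058 in light and 0.887% ± 0.043 in psilocybin-light mice. The dark libraries ranged from 0.721% to 0.865% and the light libraries from 0.791% to 0.933%, so that these groups overlapped. The psilocybin-dark libraries ranged from 0.727% to 0.802% and the psilocybin-light libraries from 0.835% to 0.942%, without overlap. Within the dark group, library 6 had the lowest share and library 4 the highest.

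**Figure D1:**
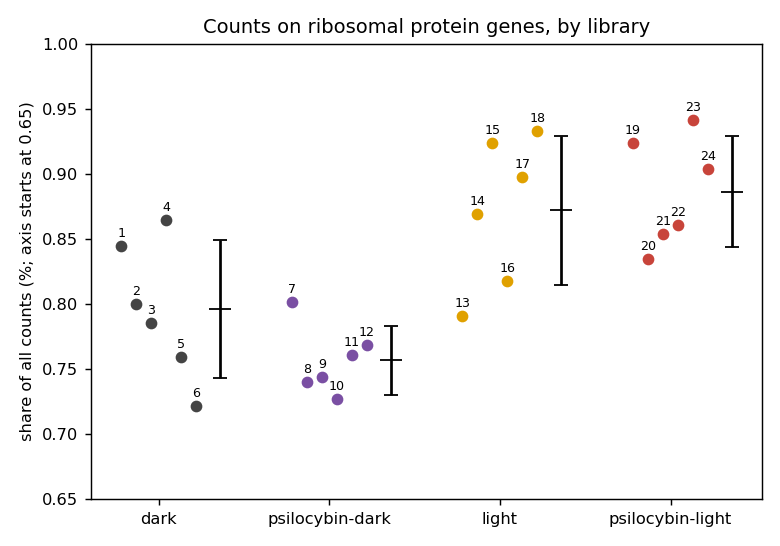
Share of all counts (%) on the 90 ribosomal protein genes in each library. Points are libraries with their numbers, black marks are the mean and SD of 6 libraries, and the vertical axis starts at 0.65%. All 6 psilocybin-light libraries lie above all 6 psilocybin-dark libraries, while light and dark overlap.

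Light without the drug went with higher ribosomal protein mRNA. In light minus dark, 46 of the 83 genes were higher and 2 were lower at an adjusted p under 0.05 (edgeR quasi-likelihood test, Benjamini-Hochberg over 14464 genes), where 31.9% of all genes tested passed and 15.4% were higher. The changes were small and alike, with a median log2 fold change of 0.16 and quartiles of 0.11 and 0.19, beside a median of -0.01 over all genes tested. Higher genes made up 26 of 49 in the large subunit and 20 of 34 in the small subunit, and both lower genes, Rps15a and Rps4l, are named for the small subunit. Of the marker lists, glutamatergic neurons had 5 of 12 genes higher and none lower in this comparison, with a median log2 fold change of 0.66. Hippocampal markers had 1 of 12 higher and 5 lower, with a median of -0.85. Microglia had 5 of 10 genes higher and none lower, with a median of 0.27. Nuclear long noncoding RNAs had 4 of 9 higher and none lower, with a median of 0.57. The part of these lists in the result was not tested beyond the hippocampal covariate given below. Glutamatergic markers also had 5 of 12 genes higher and none lower in psilocybin-dark minus dark, with a median of 0.66. None of them passed in psilocybin-light minus psilocybin-dark, where their median was 0.03.

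The most significant rise was that of Rps14, a protein of the small subunit platform. Its normalized counts in the dark libraries 1 to 6 were 2516.5, 2590.0, 2668.6, 2600.2, 2387.5 and 2222.4. Those in the light libraries 13 to 18 were 2891.3, 3227.0, 3743.2, 3067.1, 3215.6 and 2968.7. Every light library lay above every dark library, and the log2 fold change was 0.35 ± 0.06 (SE, edgeR adjusted p = 0.000151).

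Rpl12, which lies at the base of the stalk (gene on chromosome 2, 32851496 to 32855357, GRCm39), had 1383.9, 1627.1, 1610.4, 1749.3, 1658.9 and 1251.9 normalized counts in the dark libraries. The light libraries had 1837.3, 1914.5, 2224.9, 1907.2, 2002.9 and 1923.5. The groups did not overlap, although libraries 1 and 6 were the lowest of the dark group, and the log2 fold change was 0.35 ± 0.07 (edgeR adjusted p = 0.000591). Rpl29, a large subunit protein, was the remaining gene without overlap, from 676.3 to 872.6 normalized counts in dark and from 910.0 to 1114.4 in light mice, with a log2 fold change of 0.33 ± 0.06 (edgeR adjusted p = 0.00018). Such separation upward was seen in 3 of the 83 genes and in 5.59% of all genes tested.

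Rpl8, which contributes to the peptidyl transferase region, rose by a log2 fold change of 0.21 ± 0.05 (edgeR adjusted p = 0.00123), with 1 dark library, library 4 at 4058.8, above the lowest light library at 3854.4. Two-sided exact permutation tests of 6 against 6 libraries gave p = 0.00216, the smallest p that this design allows, for Rps14, Rpl12 and Rpl29, and p = 0.00433 for Rpl8.

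The count of higher genes depended on how libraries were scaled and on single libraries. An offset removed each library's trend of counts with exon length, taken as the summed exons of the gene's canonical transcript. That transcript was over 2000 bases for 13 of the 83 genes. Under this exon-length offset 15 of the 83 genes passed, 14 of them higher. With no offset, 31 passed when light library 15 was left out, beside 3924 of all genes tested. Without libraries 1, 6, 12 and 18, 25 passed, 24 of them higher, beside 6112 of all genes, again a lower share in the family. With the hippocampal markers as a covariate 24 passed, all higher, beside 1456 of all genes, a share of the family above that background. The call of Rpl29 was then lost at an edgeR adjusted p of 0.0612 and that of Rpl12 at 0.08.

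Light given with psilocybin went with higher ribosomal protein mRNA again, in separate mice. In psilocybin-light minus psilocybin-dark, 57 of 83 genes were higher and none was lower by edgeR, where 6.38% of all genes passed and 2.6% were higher. All 83 log2 fold changes were positive, with a median of 0.23 and quartiles of 0.18 and 0.29, beside a median of -0.01 over all genes. The range of all 12 libraries separated the groups upward for 52 genes, against 2.61% of all genes. Higher genes made up 33 of 49 in the large and 24 of 34 in the small subunit. Astrocyte markers had 3 of 10 genes lower and none higher in this comparison, with a median log2 fold change of -0.19, and their mean log2 level was 0.03 ± 0.15 (SD, n = 6) above the mean of all libraries in psilocybin-dark and -0.22 ± 0.14 in psilocybin-light mice. Their part in the result was not tested.

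**Figure D2:**
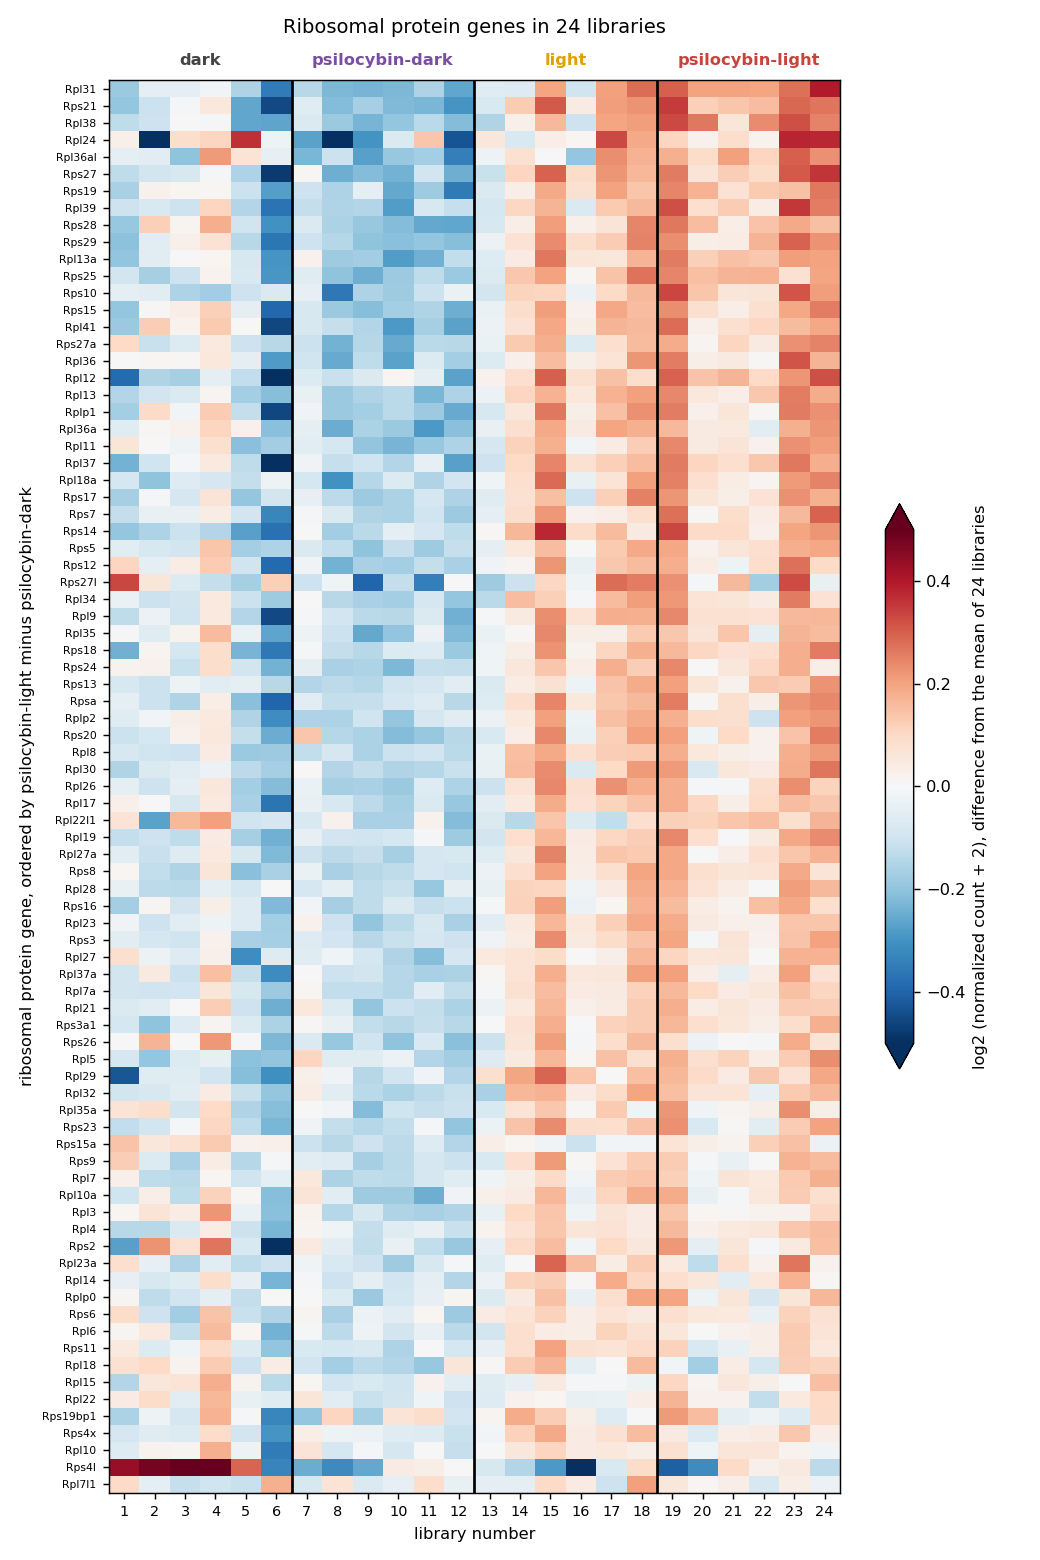
Difference of log2 (normalized count + 2) from the mean over 24 libraries for the 83 genes tested (rows, ordered by psilocybin-light minus psilocybin-dark) in each library (columns, by group). Red is above and blue below the mean, and colours stop at differences of 0.5. Most cells of the psilocybin-dark block are blue, with library 7 the least so at 23 of 83 genes above the mean, and most of the psilocybin-light block are red, with 62 to 81 of 83 genes above it. Library 6 is the bluest dark library, and Rps4l is red in dark libraries 1 to 5.

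Rpl31, a protein at the exit of the peptide tunnel (gene on chromosome 1, 39406884 to 39413938, GRCm39), changed with the smallest adjusted p. Its normalized counts were 1160.0, 1091.9, 1087.7, 1092.5, 1147.3 and 1067.0 in psilocybin-dark libraries 7 to 12. They were 1572.1, 1468.6, 1468.4, 1465.5, 1545.2 and 1679.2 in psilocybin-light libraries 19 to 24. The groups were far apart beside their spread, with a log2 fold change of 0.47 ± 0.07 (edgeR adjusted p = 0.00058, exact permutation p = 0.00216). Without the drug, 3 of the 6 light libraries lay within the range of the dark libraries, and the log2 fold change was 0.21 ± 0.07.

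Rpl38, known for its part in the translation of Hox mRNAs (gene on chromosome 11, 114559350 to 114563166, GRCm39), had 734.3, 678.2, 657.1, 675.0, 702.1 and 664.6 normalized counts in psilocybin-dark libraries. The psilocybin-light libraries had 971.1, 926.1, 805.3, 910.2, 966.7 and 917.3. Library 21 was the lowest of its group and still above every psilocybin-dark library, and the log2 fold change was 0.42 ± 0.06 (edgeR adjusted p = 0.00101).

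Rps25, known from initiation at internal ribosome entry sites, ranged from 968.5 to 1099.0 normalized counts in psilocybin-dark and from 1210.4 to 1356.9 in psilocybin-light mice, a log2 fold change of 0.34 ± 0.05 (edgeR adjusted p = 0.00118). Rpl13, of the large subunit, ranged from 1527.3 to 1740.1 and from 1827.0 to 2132.4, a log2 fold change of 0.30 ± 0.05 (edgeR adjusted p = 0.00132). With the exon-length offset 16 of the 83 genes were called, without Rpl13 (edgeR adjusted p = 0.0895), beside 282 of all genes tested. With a coding-length offset 23 were called, beside 406 of all genes. All of these ribosomal protein genes were higher, and the median log2 fold change was at least 0.13 with either offset.

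The light effects with and without the drug share no libraries. Higher in both were 41 genes, which is 41 of the 46 higher without and of the 57 higher with psilocybin. Over all genes tested, 15.4% were higher without and 2.6% with psilocybin. Their share higher in both was not counted and can be at most 2.6%. Higher in at least 1 were 62 genes, and 21 were higher in neither. The latter include Rpl22, Rpl15, Rpl18, Rpl10, Rpl7l1, Rps6 and Rplp0.

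**Figure D3:**
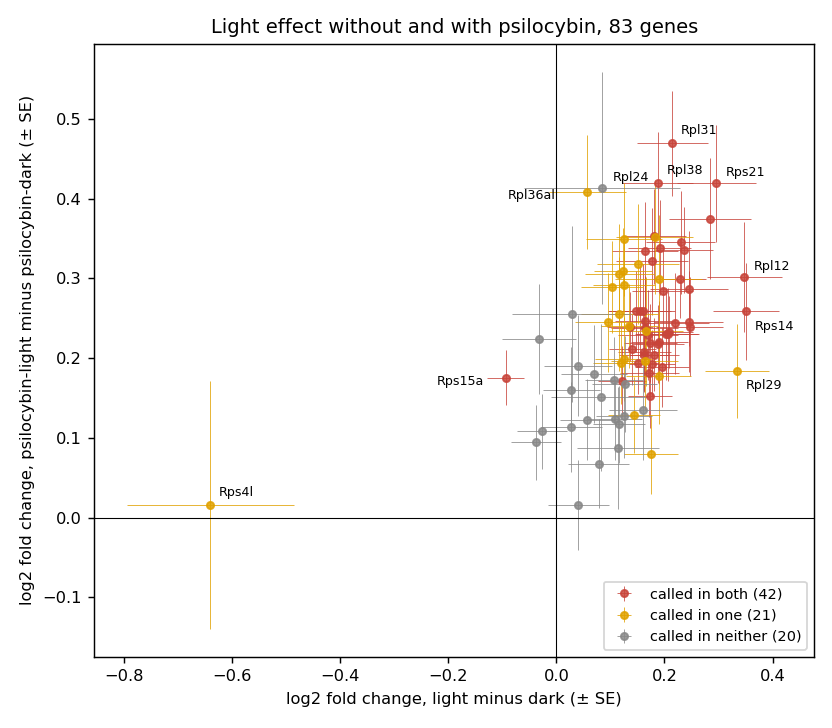
Log2 fold change of light minus dark (horizontal) against psilocybin-light minus psilocybin-dark (vertical) for 83 genes, with SE bars, coloured by whether a gene passed an adjusted p of 0.05 in both, 1 or neither comparison. Nearly all genes lie to the upper right of the origin, Rps15a is called in opposite directions, and Rps4l stands alone on the left.

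With psilocybin in the dark none of these genes passed as higher, although 15 of the 83 log2 fold changes were positive, up to 0.13. In psilocybin-dark minus dark, no gene of the 83 was higher and 5 were lower by edgeR, where 24.7% of all genes passed and 12.8% were lower, a share of the family below that background. The count of higher genes was 0 also with DESeq2, and 10 genes had an unadjusted p under 0.05 in either direction. The median log2 fold change was -0.04, beside -0.02 over all genes, and turned to 0.02 with the hippocampal markers as a covariate.

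The lower genes were Rps15a, Rps4l, Rpl36a, Rpl36al and Rpl18. Rps15a, of the small subunit (gene on chromosome 7, 117703595 to 117715454, GRCm39), had 1848.2, 1739.3, 1760.4, 1829.0, 1698.9 and 1701.5 normalized counts in dark libraries. The psilocybin-dark libraries had 1549.9, 1519.9, 1557.6, 1525.9, 1596.8 and 1509.5. All psilocybin-dark libraries lay below all dark libraries, and the log2 fold change was -0.19 ± 0.03 (edgeR adjusted p = 0.000386, and 0.21 with the hippocampal markers as a covariate).

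Rps15a was also lower in light than in dark mice, by a log2 fold change of -0.09 ± 0.03 (edgeR adjusted p = 0.0421), with 1552.2 to 1712.2 normalized counts in light. That call was lost in 16 of 38 alternatives, 9 of which left out 1 library. The psilocybin-light libraries, from 1639.1 to 1850.0, overlapped with dark, and their log2 fold change from dark was -0.02 ± 0.03.

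Rps4l (gene on chromosome 6, 148256098 to 148257431, GRCm39), a copy close in sequence to Rps4x, with which it may share reads, had 341.7, 351.6, 385.1, 514.7, 308.5 and 200.1 normalized counts in dark libraries. The other 18 libraries ranged from 168.4 to 269.6. Dark libraries 1 to 5 were thus above all others, while dark library 6 lay among them. The log2 fold change was -0.64 ± 0.15 in light (edgeR adjusted p = 0.00294), -0.59 ± 0.15 in psilocybin-dark (0.00712) and -0.58 ± 0.15 in psilocybin-light mice (0.00508), comparisons that share the dark libraries. With the hippocampal markers as a covariate these calls were lost, with adjusted p-values of 0.387, 0.691 and 0.714. Rps4x, the X-linked gene of the small subunit, was higher in light than in dark, by a log2 fold change of 0.18 ± 0.05 (edgeR adjusted p = 0.00937).

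Rpl36a and its copy Rpl36al, which encode nearly the same large subunit protein, were both lower in psilocybin-dark than in dark mice. Rpl36a ranged from 669.8 to 834.7 normalized counts in dark and from 633.6 to 747.4 in psilocybin-dark mice, a log2 fold change of -0.17 ± 0.06 (edgeR adjusted p = 0.0298). Rpl36al ranged from 185.5 to 247.9 and from 168.2 to 198.0, a log2 fold change of -0.21 ± 0.07 (edgeR adjusted p = 0.0314). The groups overlapped for either gene, and their reads may be split between the copies. The call was lost for Rpl36a in 11 of 38 alternatives, 5 of which left out 1 library, and for Rpl36al in 9 of 38, 4 of which left out 1 library. Rpl18 was lower by a log2 fold change of -0.15 ± 0.06 (edgeR adjusted p = 0.0484). The count of 5 became 16 without dark libraries 1 and 6, where 4851 of all genes tested passed. It was 11 without library 6 alone, where 4196 passed, and 2 without library 4. With the hippocampal markers as a covariate it was 0, where only 22 of all genes passed. Without libraries 1, 6, 12 and 18 it was 12, all lower, beside 5445 of all genes.

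**Figure D4:**
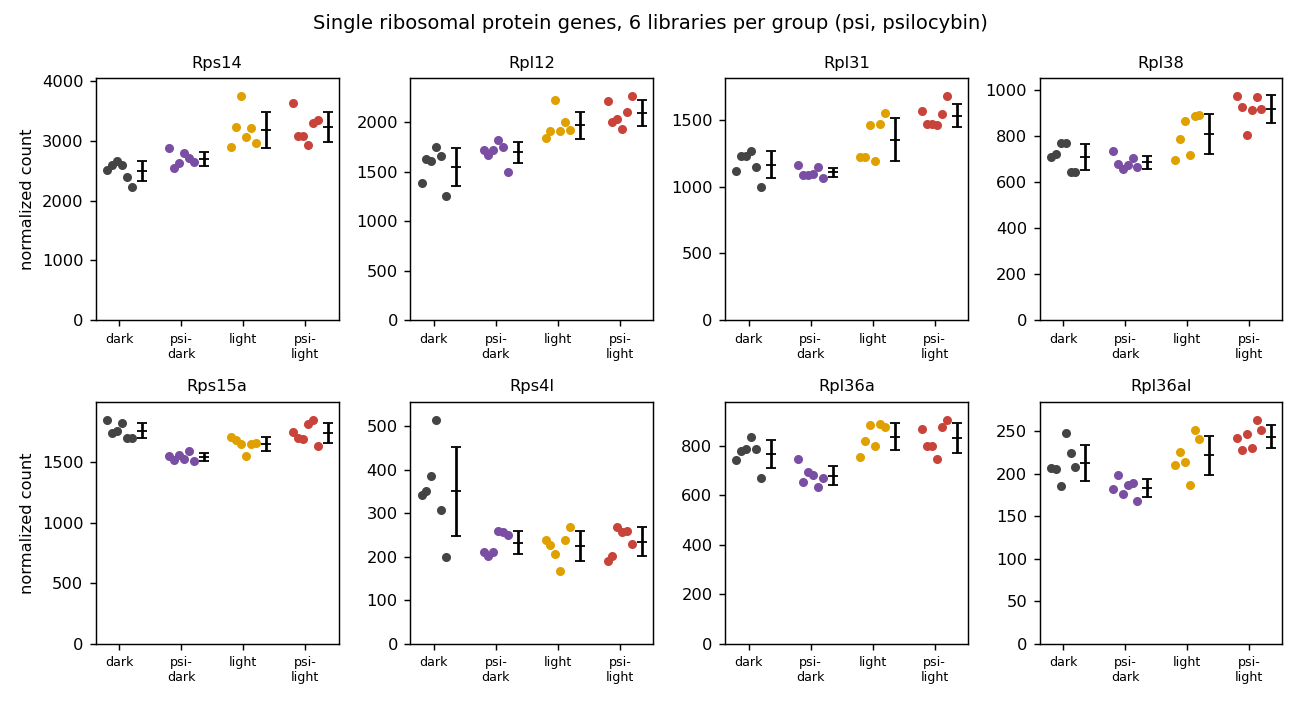
Normalized counts of 8 ribosomal protein genes in each of 24 libraries. Coloured points are libraries, 6 per group, and black marks are mean and SD. Rps14 and Rpl12 are higher in both light groups, Rps15a is lowest in psilocybin-dark mice, and Rps4l is highest in 5 of the 6 dark libraries.

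Psilocybin with light was compared with dark. In psilocybin-light minus dark, 55 of 83 genes were higher and 1, Rps4l, was lower by edgeR, where 38.4% of all genes passed and 17.4% were higher. The median log2 fold change was 0.19, beside -0.02 over all genes, and groups separated upward for 19 genes, against 8.28% of all genes. Rpl12 rose by 0.44 ± 0.07 (edgeR adjusted p = 4.2e-05), Rpl31 by 0.39 ± 0.07 (7.25e-05), Rps14 by 0.37 ± 0.06 (6.0e-05) and Rpl38 by 0.37 ± 0.07 (0.000116) on the log2 scale. The exon-length offset left 31 genes called, 29 of them higher, beside 5205 of all genes tested. The hippocampal covariate left 30, without Rpl12 (edgeR adjusted p = 0.0534), beside 1301 of all genes.

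Psilocybin under light was compared with light alone. In psilocybin-light minus light, none of the 83 genes passed in edgeR or in DESeq2, where 0.608% of all genes passed, and 5 had an unadjusted p under 0.05. The median log2 fold change was 0.03. Rpl38 had the largest log2 fold change of the 83, 0.18 ± 0.06, with an edgeR adjusted p of 0.275. Without libraries 1, 6, 12 and 18, 1 gene passed.

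The psilocybin-dark group was set against light alone. In psilocybin-dark minus light, 9 of 83 genes were lower and none higher by edgeR, where 0.456% of all genes passed and 0.263% were lower. The log2 fold change was negative for 82 of 83 genes with a median of -0.20, and groups separated downward for 23 genes, against 1.36% of all genes. Rpl13 ranged from 1750.5 to 2059.2 normalized counts in light mice, above all psilocybin-dark libraries, with a log2 fold change of -0.26 ± 0.05 (edgeR adjusted p = 0.0223). Rps25 changed by -0.29 ± 0.05 (0.0223), Rpl36a by -0.30 ± 0.06 (0.026) and Rpl8 by -0.23 ± 0.05 (0.0312). The count was 0 when library 8, 9, 10, 14, 15, 17 or 18 was left out alone, 44 without dark library 6, 34 without light library 13, 43 with DESeq2 and 0 with the exon-length offset. It was also 23, 21, 19, 14, 5 and 4 without library 1, 4, 12, 16, 7 and 11, in that order. Of all genes tested, 328 passed without library 6, 215 without library 13, 405 with DESeq2 and 6 with the exon-length offset.

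The difference between the light effects with and without psilocybin was tested as an interaction. Of the 83 genes, 2 passed, both with the larger light effect under psilocybin, where 8.75% of all genes passed and 3.89% were in that direction. Rps15a had an interaction of 0.27 ± 0.05 on the log2 scale (edgeR adjusted p = 0.00303), with light effects of -0.09 ± 0.03 without and 0.18 ± 0.03 with psilocybin. Rpl36al had an interaction of 0.35 ± 0.10 (edgeR adjusted p = 0.0331), with light effects of 0.06 ± 0.07 and 0.41 ± 0.07, and this call was lost in 9 of 37 alternatives, 6 of which left out 1 library. The median interaction was 0.07, and the larger number of genes called with psilocybin is not by itself a difference between the effects. The count was 14 without dark libraries 1 and 6, where 3065 of all genes tested passed. It was 15 without libraries 1, 6, 12 and 18, where 3817 passed, and both shares of the family were below those of all genes. It was 5 without library 6, 4 without library 18 and 1 when library 4, 9, 13, 16, 21 or 23 was left out alone. With the hippocampal markers as a covariate it was 0, where 24 of all genes passed.

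By role, the stalk proteins Rplp0, Rplp1 and Rplp2 had log2 fold changes of 0.13 ± 0.05, 0.19 ± 0.08 and 0.16 ± 0.06 in light minus dark, of which that of Rplp2 passed (edgeR adjusted p = 0.0463). In psilocybin-light minus psilocybin-dark they were 0.13 ± 0.05, 0.30 ± 0.08 and 0.24 ± 0.06, of which those of Rplp1 and Rplp2 passed. Rpsa, also known as a laminin receptor, rose by 0.25 ± 0.06 and by 0.24 ± 0.06, with edgeR adjusted p-values of 0.00418 and 0.0218.

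Rpl5 and Rpl11 form the 5S particle with 5S ribosomal RNA and, like Rpl23, can bind the p53 regulator Mdm2. Rpl5 rose by 0.20 ± 0.05 in light minus dark and by 0.19 ± 0.05 in psilocybin-light minus psilocybin-dark, and Rpl23 by 0.16 ± 0.05 and 0.20 ± 0.05. Rpl11 had a log2 fold change of 0.10 ± 0.06 in light minus dark, which did not pass, and rose by 0.29 ± 0.06 in psilocybin-light minus psilocybin-dark (edgeR adjusted p = 0.00385). The ubiquitin fusion gene Rps27a had 0.12 ± 0.05, which did not pass, and rose by 0.31 ± 0.05 (edgeR adjusted p = 0.00164).

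Rps6, whose phosphorylation by S6 kinases is a common readout of neuronal activity, ranged from 1161 to 1444 normalized counts in dark, 1153 to 1321 in psilocybin-dark, 1339 to 1419 in light and 1276 to 1416 in psilocybin-light mice. Its groups overlapped in both light comparisons, with log2 fold changes of 0.11 ± 0.05 and 0.12 ± 0.05 and edgeR adjusted p-values of 0.109 and 0.165. Rpl10, which joins late in the assembly of the large subunit, had 0.08 ± 0.06 and 0.07 ± 0.06, and Rpl10a had 0.13 ± 0.06 and 0.17 ± 0.06, none of which passed. The gene with the highest count per coding kb, Rpl41, had 0.15 ± 0.08, which did not pass. It rose by 0.32 ± 0.08 in psilocybin-light minus psilocybin-dark (edgeR adjusted p = 0.0125). Rps21 rose by 0.30 ± 0.07 and 0.42 ± 0.07 (edgeR adjusted p = 0.00372 and 0.00166).

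Among the paralogue pairs that could be measured, the canonical gene was the more abundant per coding kb in each. Rps27 stood at 5830 ± 848 normalized counts per kb against 376.7 ± 52.6 for Rps27l, Rpl22 at 3252 ± 184 against 1381 ± 132 for Rpl22l1, Rpl7 at 2427 ± 171 against 993.2 ± 63.4 for Rpl7l1, and Rpl36a at 2446 ± 256 against 676.8 ± 86.5 for Rpl36al (SD over 24 libraries). Rps27 rose by 0.28 ± 0.08 in light minus dark (edgeR adjusted p = 0.00599) and by 0.37 ± 0.08 in psilocybin-light minus psilocybin-dark (0.00429). Rps27l had 0.03 ± 0.11 and 0.26 ± 0.11, neither of which passed. Rpl7 rose by 0.12 ± 0.04 and 0.17 ± 0.04, while Rpl7l1 had 0.04 ± 0.06 and 0.02 ± 0.06. Rpl22 and Rpl22l1 passed in neither comparison, nor did Rpl3, and Rpl39 rose by 0.35 ± 0.07 in psilocybin-light minus psilocybin-dark (edgeR adjusted p = 0.00455). Rpl24, the lowest gene tested, had 28.8 to 61.2 normalized counts. Its log2 fold change was 0.41 ± 0.15 in psilocybin-light minus psilocybin-dark, with an edgeR adjusted p of 0.0968.

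Genes with and without a TOP-like run at the annotated start are set side by side as a description. In light minus dark, 16 of 29 genes with the run were higher, with a median log2 fold change of 0.15, and 18 of 33 genes without it, with a median of 0.16. In psilocybin-light minus psilocybin-dark, 18 of 29 and 23 of 33 were higher, with medians of 0.22 and 0.23. With the ETS core 19 of 25 and without it 22 of 37 were higher in the latter comparison, with medians of 0.24 and 0.20. No test was made of these splits.

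Ribosomal protein genes are short, and fold changes of other genes moved with length in the same comparisons. In psilocybin-light minus psilocybin-dark, the median log2 fold change of other protein-coding genes was 0.10 for 992 genes with up to 500 coding bases, 0.04 for 2943 genes with up to 1000, -0.004 for 5260 genes with up to 2000 and -0.07 for 4272 longer genes. The shares of higher genes were 9.07%, 4.08%, 1.56% and 0.398%, against 57 of 83 ribosomal protein genes. In light minus dark the medians were 0.04, 0.01, -0.01 and -0.06.

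Within the family, 34 of 42 genes with a coding length up to the median and 23 of 41 longer ones were higher in psilocybin-light minus psilocybin-dark, with median log2 fold changes of 0.24 and 0.19. In light minus dark the counts were 23 of 42 and 23 of 41. The slope of log2 deviation on log2 coding length over the other protein-coding genes was 0.018 ± 0.021 (SD, n = 6) in dark, 0.025 ± 0.017 in psilocybin-dark, -0.020 ± 0.020 in light and -0.024 ± 0.010 in psilocybin-light libraries. This length trend moved with the exposure as the ribosomal protein genes did, and its part in their change was not tested beyond the offsets given above.

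**Figure D5:**
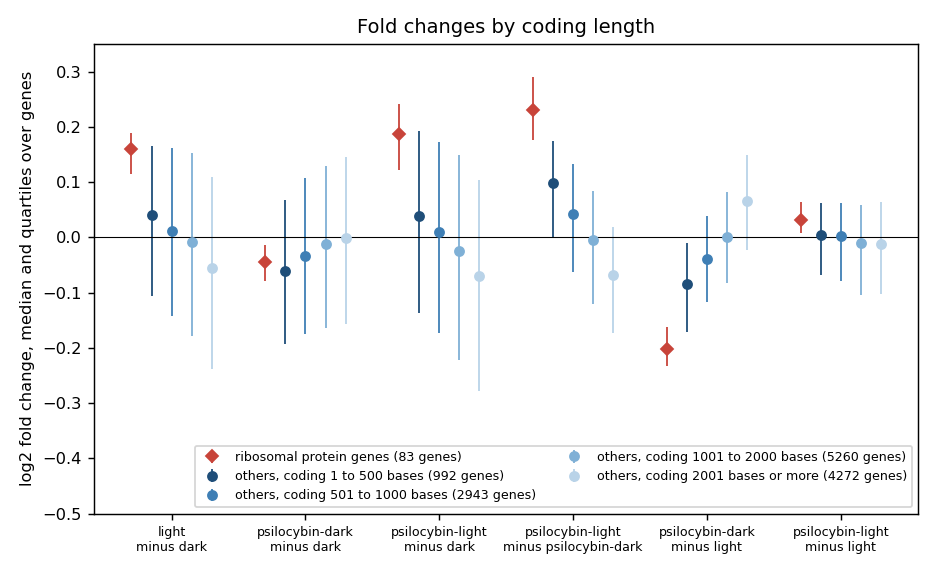
Median log2 fold change with quartiles over genes in 6 comparisons for the 83 ribosomal protein genes (red diamonds) and for other protein-coding genes in 4 bins of coding length (blue circles, darker for shorter). The ribosomal protein genes lie beyond the shortest bin in all comparisons but psilocybin-dark minus dark, where the medians are -0.04 and -0.06.

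Some proteins of the cytosolic ribosome do not carry an Rpl or Rps name. Fau, whose product is a fusion with the small subunit protein S30, rose by 0.19 ± 0.04 on the log2 scale in light minus dark (edgeR adjusted p = 0.00211), and Rack1, a scaffold on the small subunit, by 0.20 ± 0.04 (0.000612). In psilocybin-light minus psilocybin-dark they rose by 0.27 ± 0.04 and 0.18 ± 0.04 (edgeR adjusted p = 0.00118 and 0.011). In psilocybin-dark minus dark neither passed, with log2 fold changes of -0.05 ± 0.04 for Fau and 0.07 ± 0.04 for Rack1.

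Other lists of the translation machinery held genes called in both directions. Over all genes tested, 31.9% passed in light minus dark and 6.38% in psilocybin-light minus psilocybin-dark. Of 22 further genes with TOP mRNAs, such as elongation and initiation factors, 3 were higher and 2 lower in light minus dark. These were 22.7% of the list, below the share of all genes, and the median log2 fold change was 0.02. Tpt1, which encodes a TOP-regulated growth-related protein, rose by 0.36 ± 0.05 (edgeR adjusted p = 1.47e-05), while the nucleolar chaperone Npm1 fell by 0.23 on the log2 scale and the helicase cofactor Eif4b fell by 0.16. In psilocybin-light minus psilocybin-dark 3 were higher and none lower, namely Eif3k, Eif3h and Naca, with log2 fold changes of 0.16 ± 0.04, 0.15 ± 0.04 and 0.16 ± 0.04.

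Of 48 ribosome biogenesis genes, 4 were higher and 7 lower in light minus dark, with a median of -0.04. These were 22.9% of the list, below the 31.9% of all genes. In psilocybin-light minus psilocybin-dark 2 were higher and 2 lower, 8.33% beside 6.38% of all genes, with a median of 0.02. In light minus dark, Ubtf, a factor of RNA polymerase I, rose by 0.26 ± 0.06, while Polr1a, its largest subunit, changed by -0.34 ± 0.08 (edgeR adjusted p = 0.00172 and 0.00394). Of 18 genes of mTOR signalling and TOP control, 4 were higher and 5 lower in light minus dark, 50.0% of the list. Mtor changed by -0.27 ± 0.05 and Mycl, of the Myc family, by -0.97 ± 0.19 (edgeR adjusted p = 0.000321 and 0.000449). Larp1 was lower in both light comparisons, by -0.25 ± 0.04 and -0.24 ± 0.04 (edgeR adjusted p = 2.24e-05 and 0.00086), and was the one gene of this list called in psilocybin-light minus psilocybin-dark.

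Proteins of the mitochondrial ribosome are encoded by separate nuclear genes. Of the 77 tested, 10 were higher and none lower in psilocybin-light minus psilocybin-dark, with a median log2 fold change of 0.11. These were 13.0% of the list, beside 6.38% of all genes tested. In light minus dark 7 were higher and 4 lower, with a median of 0.03, which is 14.3% beside 31.9% of all genes. Mrpl2 rose by 0.22 ± 0.04 in psilocybin-light minus psilocybin-dark (edgeR adjusted p = 0.00358). Of 10 mitochondrially encoded genes, 8 were higher in psilocybin-light minus psilocybin-dark, with a median of 0.42, and none passed in light minus dark. Their share of all counts was 3.14% ± 0.19 (SD, n = 6) in psilocybin-dark and 4.26% ± 0.55 in psilocybin-light libraries, and moved with the ribosomal protein genes in that comparison. Its part in their change was not tested.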

How the data were processed

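RNA from the visual cortex of 24 mice, 6 per group with 1 library per mouse, was analysed from the deposited raw counts per Ensembl gene. The authors selected polyadenylated RNA, trimmed reads with cutadapt, mapped them with STAR and counted them with htseq-count. The study's methods name GRCm39 and the submitters' processing notes mm10, and the strand setting and the annotation release are not given in the sources used here. Groups were taken from the headings of the supplementary count table.

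TMM scaling and a quasi-likelihood model with 1 term per group over all 24 libraries were run with edgeR 4.0.16 (R 4.3.3). Genes that reached 30 counts in some library (14464) were tested, two-sided, with Benjamini-Hochberg adjustment over all of them and a threshold of 0.05. Named genes were compared by a two-sided exact permutation test of 6 against 6 libraries, whose smallest p is 0.00216. Names and lengths came from GENCODE vM39 (54749 of 55414 rows named), and starts from RefSeq. Simulated data with 200 changed genes among 14464 in a copy of light minus dark gave 155 called with 5 others called. Python 3.11.15, pandas 2.3.3 and matplotlib 3.10.9 were used. Depth was between 13552516 and 17906994 counts per library, and the number of mice limits the precision.

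Alternatives were DESeq2 1.42.0, its size factors, TMM without the ribosomal protein genes, other filters, length offsets, 1 surrogate variable (sva 3.50.0), marker covariates, libraries left out, only the compared groups, and the labels' exposure. The cerebellar covariate, the length trend without the ribosomal protein genes, the coding-length offset and leaving out libraries 1, 6, 12 and 18 were chosen after seeing the data. The genes and lists were chosen with earlier results of these data known.

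Values are given for up to 4 genes per direction with the smallest adjusted p in each comparison, for genes fixed by role and paralogue pair, for the 3 highest and 3 lowest per coding length, and for up to 3 called genes of each other list. Rpl15 and Rpl18 were named after their values were seen. 1 listed gene is not reported here.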

Additional observations from a re-analysis of the deposited data

Results flagged for a closer look

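Each group of 6 libraries was screened with Dixon's ratio for 1 library that stood away from the rest. Of 144 groups screened, those of 35 named genes and of the share of counts on all the ribosomal protein genes, 3 were past the critical value, and chance flags about 1 group in 20.

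Rps27 stood at 1041.8 normalized counts in dark library 6, where the other dark libraries ranged from 1307.6 to 1447.3. Rpl39 stood at 249.1 in psilocybin-dark library 10, where the others ranged from 272.7 to 286.8. Rpl38 stood at 805.3 in psilocybin-light library 21, where the others ranged from 910.2 to 971.1.

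The light effect differed with and without psilocybin for 2 genes by the interaction test. For Rps15a it was larger with psilocybin by 0.2691 on the log2 scale, and the light effects had opposite signs. For Rpl36al it was larger by 0.3512.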

How the results depend on the processing

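Medians of the 83 log2 fold changes kept their sign in light minus dark, psilocybin-light minus dark and psilocybin-light minus psilocybin-dark under all alternatives with the supplement's groups, while that of psilocybin-dark minus dark turned from -0.04 to 0.02 with the hippocampal covariate. The number called among all genes moved with the setting too. In light minus dark it was 4611 in the main fit, 1456 with the hippocampal covariate and 6112 without libraries 1, 6, 12 and 18. In the same order it was 3575, 22 and 5445 in psilocybin-dark minus dark, and 1266, 24 and 3817 in the interaction. In psilocybin-light minus psilocybin-dark it was 923, and 282 with the exon-length offset. Counts of called ribosomal protein genes moved as follows, with the cause not tested. For light minus dark (48 called) the count was 15 with the exon-length offset and also when its trend was estimated from other genes, 28 with the coding-length offset, 31 with no filter, 24 with only the groups compared, 24 with the hippocampal covariate and 25 without libraries 1, 6, 12 and 18. For psilocybin-dark minus dark (5) it was 3 with each of the 3 length offsets, 2 with no filter, 2 with only the groups compared, 8 with 1 surrogate variable, 0 with the hippocampal covariate, 16 without libraries 1 and 6 and 12 without the 4 libraries. For psilocybin-light minus dark (56) it was 31, 30 and 30 with the exon-length offset, that offset from other genes and the hippocampal covariate. For psilocybin-light minus light (0) it was 1 without the 4 libraries. For psilocybin-light minus psilocybin-dark (57) it was 16, 16 and 23 with the length offsets. For psilocybin-dark minus light (9) it was 0 with each length offset and with no filter, 27 with only the groups compared, 54 with 1 surrogate variable, 17 and 48 with the hippocampal and cerebellar covariates, 54 without libraries 1 and 6, 35 without the 4 libraries and 43 with DESeq2. For the interaction (2) it was 1 with the coding-length offset, 1 with no filter, 0 with the hippocampal covariate, 14 without libraries 1 and 6 and 15 without the 4 libraries. With the labels' exposure the counts were 48, 0, 9, 5, 57, 56 and 2 in the same order of comparisons, with the directions reversed except in psilocybin-light minus light, where the 5 genes were lower and none had been called, and in psilocybin-dark minus dark, where none was called. Leaving out each library gave ranges of 31 to 56, 2 to 11, 48 to 61, 0 to 0, 44 to 64, 0 to 44 and 1 to 5. The fit of only the compared groups was not run for the interaction. No paired analysis was possible because the groups share no replicate numbers.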
